A study of Mus musculus with 6 samples.

Results

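Lrrc55, Ptx3, Steap4, Slitrk5, Efcc1, Kcne3 and Mycn are 7 of the 30055 genes listed for cultured mouse lung endothelial cells, and were chosen by their RNA levels: each was far higher in cells given reserpine before tumour vesicles than in cells given the vesicles alone. That contrast is given below as a description only. The data hold 3 groups of 2 RNA sequencing libraries each. Cells of the TEV plus reserpine group received reserpine, a blocker of vesicular monoamine transport, at 10 µM for 8 h, and then tumour extracellular vesicles (TEV) of MC38 mouse colorectal cancer cells at 20 µg/ml for 12 h. Cells of the TEV group received the vesicles without reserpine, and cells of the vehicle group received neither; the sample labels place reserpine in 1 group, although the series text can be read as giving it to all cells. All cells came from the lungs of C57BL6 Ch25h knockout mice aged 3 weeks and labelled female, so every group, vehicle included, lacks cholesterol 25-hydroxylase, the enzyme that makes 25-hydroxycholesterol. Reserpine without vesicles was not analysed here, so effects of the drug itself and on the vesicle response cannot be told apart.

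The 7 genes belong to no single pathway. Ptx3 encodes the long pentraxin PTX3, a secreted pattern recognition protein that endothelial cells make on inflammatory stimulation, and Steap4 encodes a membrane metalloreductase that reduces iron and copper. Lrrc55 and Kcne3 encode accessory subunits of potassium channels: LRRC55 was described as a gamma subunit of the large-conductance BK channel, from work on human proteins, and KCNE3 is a single-pass partner of voltage-gated channels such as KCNQ1 whose transcript also marks tip cells, the leading cells of vascular sprouts in mice. Slitrk5 encodes a leucine-rich repeat membrane protein known from neurons and synapses. Mycn encodes N-MYC, a transcription factor that binds DNA as a dimer with MAX and acts on growth and ribosome genes. The protein of Efcc1 is named for its EF-hand and coiled-coil domains.

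Library totals ranged from 22270657 to 81225627 estimated counts, of which the most abundant gene held 1.46% to 1.84%. Levels are given as CPM, counts scaled to a common library size, on which 3 counts equal 0.0369 to 0.135 CPM depending on the library. The 2 libraries of each group were not copies of each other: they differed beyond counting error. No label says that they were separate cultures or animals, so each p-value measures the spread between these libraries, which may be technical. Endothelial markers were present throughout: the 15 on the list summed to 10269 and 10492 CPM with TEV plus reserpine, 9824 and 9971 CPM with TEV, and 5434 and 5458 CPM with vehicle.

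All 7 genes were expressed in vehicle cells, were lower in both TEV libraries, and were near, below or above the vehicle level in TEV plus reserpine cells. Against vehicle, the mean level in TEV plus reserpine cells ran from 29.9% for Ptx3 to 419% for Mycn, and that in TEV cells from 0.978% for Ptx3 to 31.9% for Mycn. By edgeR's quasi-likelihood test over 15035 genes, with an adjusted p under 0.05 as the threshold, 7 of 7 were called higher in TEV plus reserpine against TEV, a contrast in which 15.7% of all genes were called higher; since it chose the genes, nothing is read from that count. Of all genes, 16% were called lower there. In TEV against vehicle 7 of 7 were called lower, beside 24.6% of all genes (25.1% were higher). In TEV plus reserpine against vehicle 3 of 7 were called higher, beside 19.1% of all genes, and 2 of 7 lower, beside 19.9%. The last pair of comparisons share the TEV or the TEV plus reserpine libraries with the choice of the genes, so their p-values are not independent of it. The libraries did not overlap for 7 of 7 genes, all higher, in TEV plus reserpine against TEV (35% of all genes), for 7 of 7, all lower, in TEV against vehicle (39%), and for 5 of 7 in TEV plus reserpine against vehicle: 3 higher (35.4%) and 2 lower (38.1%).

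**Figure D1:**
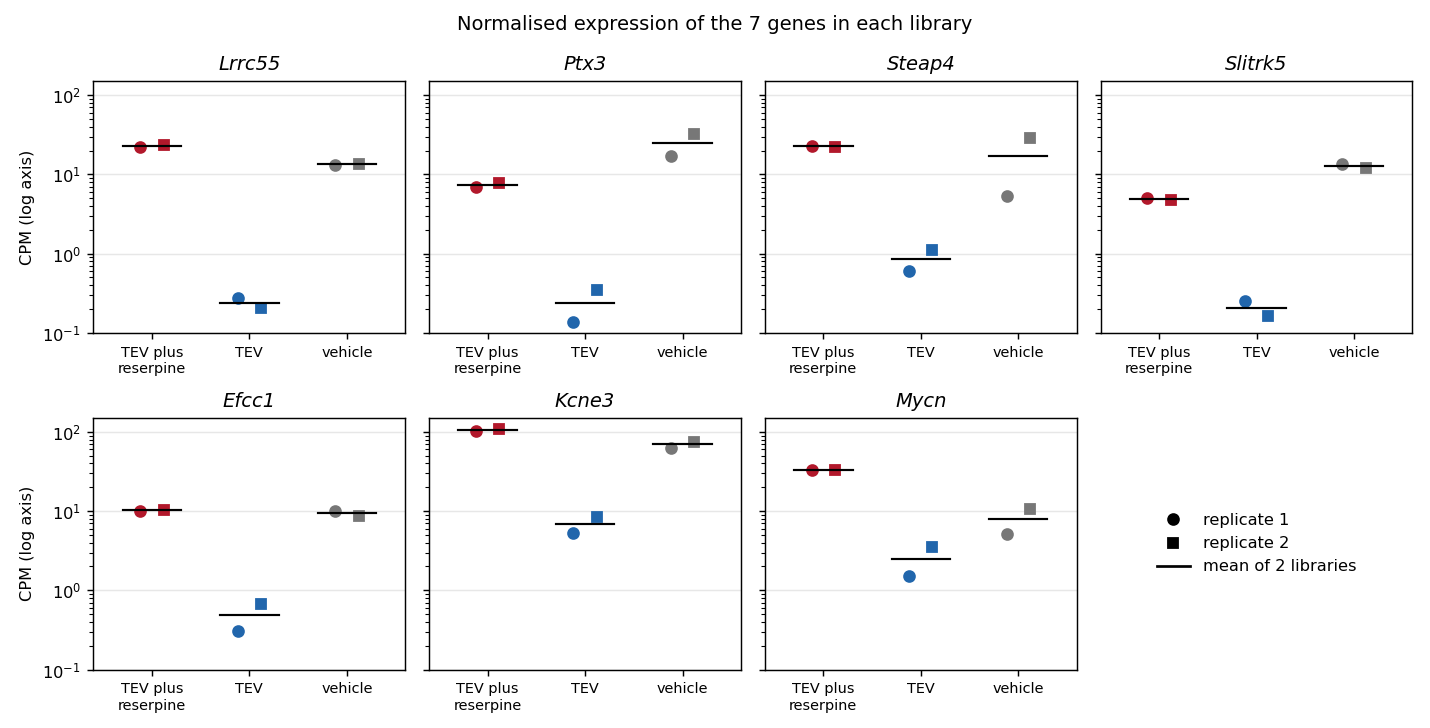
Each panel plots 1 gene's CPM on a log axis in the 2 libraries of TEV plus reserpine, TEV and vehicle, with a bar at the group mean. In every panel both TEV libraries lie under the other 4, and the TEV plus reserpine libraries lie above vehicle for Lrrc55, Kcne3 and Mycn and below it for Ptx3 and Slitrk5.

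Ptx3 had 6.97 and 7.78 CPM with TEV plus reserpine, 0.139 and 0.344 CPM with TEV, and 17.0 and 32.3 CPM with vehicle. The 3 groups did not overlap, and the TEV libraries rested on only 4.93 and 26.7 estimated counts. Thinning all libraries to the smallest total moved its log2 change in TEV plus reserpine against TEV to 5.56, against 4.77 at full depth, and in TEV against vehicle to -7.39. Its mean was 30.6-fold higher with TEV plus reserpine (7.37 ± 0.574 CPM) than with TEV (0.241 ± 0.145 CPM; SD, n = 2 each). It fell by 6.50 on the log2 scale in TEV against vehicle (SE 0.467, edgeR adjusted p = 8.83e-05), the largest fall of the 7 and the 146th largest of 15035 genes. It fell by 1.74 in TEV plus reserpine against vehicle (SE 0.349, edgeR adjusted p = 0.0087), a call that ended without TEV plus reserpine replicate 1 (adjusted p = 0.0601). With TEV plus reserpine the level was 29.9% of the vehicle mean. Veph1, a protein-coding gene that overlaps Ptx3 on the opposite strand, had 0.938 and 1.32 CPM with TEV plus reserpine, 1.86 and 1.54 CPM with TEV, and 0.325 and 0.522 CPM with vehicle, a different order of groups.

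Steap4 had 23.0 and 22.3 CPM with TEV plus reserpine, 0.611 and 1.12 CPM with TEV, and 5.34 and 29.0 CPM with vehicle. The vehicle libraries were 5.42-fold apart, the widest gap between replicates among the 7 genes in any group, and enclosed both TEV plus reserpine libraries. The mean was 26.2-fold higher with TEV plus reserpine (22.7 ± 0.473 CPM) than with TEV (0.866 ± 0.360 CPM; SD, n = 2 each). Steap4 fell by 4.22 on the log2 scale in TEV against vehicle (SE 0.799, edgeR adjusted p = 0.00494). The call in TEV plus reserpine against TEV ended without TEV replicate 1 (log2 change 4.33, edgeR adjusted p = 0.0538). The change in TEV against vehicle was -4.98 without vehicle replicate 1 and -2.56 without vehicle replicate 2, with the call kept each time (adjusted p = 0.000148 and 0.0018). Against vehicle, the log2 change with TEV plus reserpine was 0.41 (SE 0.662, edgeR adjusted p = 0.651), but -0.35 (0.373) without vehicle replicate 1 and 2.08 (0.0062) without vehicle replicate 2, so 1 library set its direction.

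The sequences before the RefSeq start sites of Ptx3 and Steap4 are shown because both genes are known to respond to tumour necrosis factor and both were lowest with TEV; against vehicle, with TEV plus reserpine, Ptx3 was lower and Steap4 was not called. The 250 bases are from RefSeq on mouse build GRCm38.p6, plus strand, at chr3:66219637-66219886 for Ptx3 and chr5:7960222-7960471 for Steap4. Of 7 stretches of the bases after the start, 2 for Ptx3 and 7 for Steap4 were found in that gene's GENCODE transcripts, so the Ptx3 window may not end at the start used here. Capitals mark matches to any of 7 searched motifs.
Ptx3: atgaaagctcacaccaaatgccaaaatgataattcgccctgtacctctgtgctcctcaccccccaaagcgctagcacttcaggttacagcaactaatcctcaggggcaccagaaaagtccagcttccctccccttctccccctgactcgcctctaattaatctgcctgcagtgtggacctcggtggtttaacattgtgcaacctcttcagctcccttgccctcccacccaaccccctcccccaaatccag
Steap4: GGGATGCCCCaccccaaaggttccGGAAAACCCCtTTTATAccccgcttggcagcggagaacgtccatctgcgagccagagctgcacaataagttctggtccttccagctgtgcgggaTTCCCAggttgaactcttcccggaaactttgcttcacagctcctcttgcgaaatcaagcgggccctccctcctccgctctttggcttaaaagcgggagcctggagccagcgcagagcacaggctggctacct
The Steap4 window held the NF-kB motif, searched by its degenerate consensus on both strands, at 250 to 241 (on either strand) and at 226 to 217 bases before the start, a TATAAA match on the reverse strand at 215 to 210, and a TGGGAA match (the core bound by the Notch effector RBPJ) on the reverse strand at 132 to 127. The nearer NF-kB match and the TATAAA match do not overlap. The Ptx3 window held none of the 7 motifs, which says only that these letters are not in this window. Among all 32851 promoter windows of that length, 7.25% held the NF-kB motif, 12.4% TATAAA and 21.6% TGGGAA.

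Lrrc55 had 21.9 and 23.7 CPM with TEV plus reserpine, 0.278 and 0.204 CPM with TEV, and 13.3 and 13.6 CPM with vehicle. The groups were well apart and replicates close, although the TEV libraries held only 9.83 and 16.0 estimated counts. Its mean was 94.9-fold higher with TEV plus reserpine (22.8 ± 1.28 CPM) than with TEV (0.241 ± 0.0523 CPM; SD, n = 2 each), the widest ratio of the 7. Lrrc55 fell by 5.85 on the log2 scale in TEV against vehicle (SE 0.198, edgeR adjusted p = 6.48e-06). It rose by 0.77 in TEV plus reserpine against vehicle (SE 0.141, edgeR adjusted p = 0.00613), to 170% of the vehicle mean. In GENCODE vM21 it overlaps the antisense genes Gm13713 and Gm13716.

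Kcne3 was the most abundant of the 7, with 102 and 108 CPM with TEV plus reserpine, 5.28 and 8.48 CPM with TEV, and 63.1 and 75.6 CPM with vehicle. No library of a group overlapped another group. The mean was 15.3-fold higher with TEV plus reserpine (105 ± 4.21 CPM) than with TEV (6.88 ± 2.27 CPM; SD, n = 2 each). Kcne3 fell by 3.30 on the log2 scale in TEV against vehicle (SE 0.219, edgeR adjusted p = 6.33e-05). In TEV plus reserpine against vehicle it rose by 0.60 (SE 0.195, edgeR adjusted p = 0.0481), close to the threshold. That call ended when vehicle replicate 1 (adjusted p = 0.210), vehicle replicate 2 (0.0776), TEV plus reserpine replicate 1 (0.123) or its replicate 2 (0.162) was removed, and with scaling by library size alone (0.0712).

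RefSeq gives Kcne3 a pair of start sites; the 250 bases before the downstream site, chr7:100178433-100178682 on the plus strand of GRCm38.p6, are shown because they hold 3 of its 4 motif matches, marked in capitals.
Kcne3: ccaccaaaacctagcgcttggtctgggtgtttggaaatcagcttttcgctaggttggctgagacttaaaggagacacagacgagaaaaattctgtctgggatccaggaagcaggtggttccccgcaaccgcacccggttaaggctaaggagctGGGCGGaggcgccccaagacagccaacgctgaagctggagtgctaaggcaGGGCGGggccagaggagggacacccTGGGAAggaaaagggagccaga
They held the GC box GGGCGG at 97 to 92 and 47 to 42 bases before the start and TGGGAA at 22 to 17. The window before the upstream site held the AP-1 motif TGANTCA at 37 to 31. Across the 8 windows of the 7 genes, GGGCGG was found for 4 genes (Slitrk5, Efcc1, Kcne3 and Mycn) and in 32.7% of all windows, and TGANTCA for 2 genes (Efcc1 and Kcne3) and in 6.75%. The E-box CACGTG, a sequence bound by MYC and MAX dimers, was in 0 of the 8 windows and 6.02% of all, and the cyclic AMP response element TGACGTCA in 0 of the 8 and 1.55% of all. No motif was shared by all 7 genes. For Lrrc55, 0 of 7 stretches after the RefSeq start were found in its GENCODE transcripts, so its window may lie away from the start.

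Slitrk5 had 5.09 and 4.82 CPM with TEV plus reserpine, 0.25 and 0.166 CPM with TEV, and 13.4 and 11.9 CPM with vehicle. The groups did not overlap, and the TEV libraries rested on 9.37 and 12.9 estimated counts. The mean was 23.9-fold higher with TEV plus reserpine (4.96 ± 0.190 CPM) than with TEV (0.208 ± 0.0597 CPM; SD, n = 2 each). Slitrk5 fell by 5.98 on the log2 scale in TEV against vehicle (SE 0.263, edgeR adjusted p = 1.43e-05) and by 1.35 in TEV plus reserpine against vehicle (SE 0.199, edgeR adjusted p = 0.00255). Like Ptx3, it was below vehicle with TEV plus reserpine, at 39.2% of the vehicle mean. Thinned to the smallest library, its log2 change was 3.87 in TEV plus reserpine against TEV, where it was 4.63 at full depth, and -5.22 in TEV against vehicle.

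Efcc1 had 10.1 and 10.4 CPM with TEV plus reserpine, 0.305 and 0.675 CPM with TEV, and 10.1 and 8.60 CPM with vehicle. The TEV plus reserpine and vehicle libraries overlapped, and the TEV libraries lay far below them. The mean was 21.0-fold higher with TEV plus reserpine (10.3 ± 0.219 CPM) than with TEV (0.490 ± 0.261 CPM; SD, n = 2 each). Efcc1 fell by 4.16 on the log2 scale in TEV against vehicle (SE 0.333, edgeR adjusted p = 0.000136). Against vehicle, its log2 change with TEV plus reserpine was 0.13 (SE 0.277, edgeR adjusted p = 0.731), which does not show that the levels were equal. It overlaps the antisense gene Gm44210, and Kcne3 overlaps Gm34821; no label gives a strand for the counting, so sense and antisense reads cannot be told apart.

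Mycn had 32.9 and 32.8 CPM with TEV plus reserpine, 1.5 and 3.50 CPM with TEV, and 5.13 and 10.6 CPM with vehicle. Its TEV plus reserpine libraries lay above all others, and its TEV libraries closer to vehicle than for any other of the 7. The mean was 13.1-fold higher with TEV plus reserpine (32.8 ± 0.0436 CPM) than with TEV (2.50 ± 1.42 CPM), and 4.19-fold higher than with vehicle (7.84 ± 3.83 CPM; SD, n = 2 each). Mycn rose by 2.08 on the log2 scale in TEV plus reserpine against vehicle (SE 0.429, edgeR adjusted p = 0.00958), by 1.64 without vehicle replicate 1 (0.0379) and by 2.68 without vehicle replicate 2 (0.00909). It fell by 1.58 in TEV against vehicle (SE 0.443, edgeR adjusted p = 0.0233). That call ended without vehicle replicate 2 (log2 change -0.99, adjusted p = 0.112) and without TEV replicate 1 (-1.13, 0.0801).

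**Figure D2:**
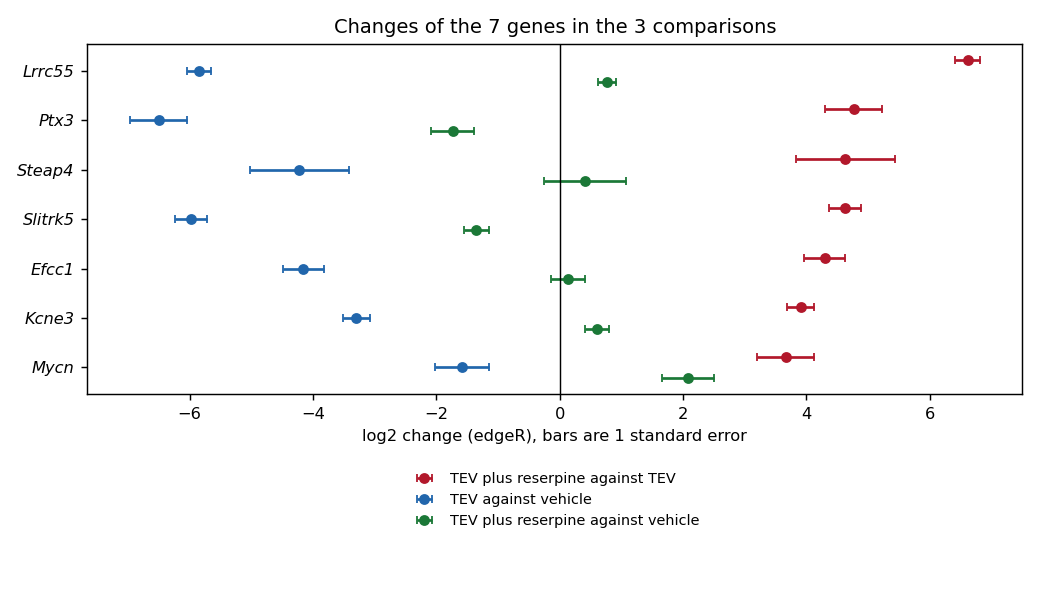
Points give each gene's log2 change by edgeR in the 3 comparisons, with bars of 1 standard error. All 7 are positive in TEV plus reserpine against TEV (3.66 to 6.61) and negative in TEV against vehicle (-6.50 to -1.58), and they lie on both sides of 0 in TEV plus reserpine against vehicle (-1.74 to 2.08).

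TEV replicate 2 held more than TEV replicate 1 of Ptx3, Steap4, Efcc1, Kcne3 and Mycn, and less of Lrrc55 and Slitrk5. Without TEV replicate 2 the log2 change in TEV against vehicle was -7.43 for Ptx3, -4.92 for Efcc1 and -2.37 for Mycn, and in TEV plus reserpine against TEV it was 5.71 for Ptx3, 5.22 for Steap4, 5.07 for Efcc1 and 4.46 for Mycn. Within the TEV plus reserpine group the replicates of each gene were at most 1.12-fold apart.

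Per kilobase of the longest coding transcript in GENCODE vM21, the level order with TEV plus reserpine was Kcne3 (79.5 CPM per kb), Mycn (12.3), Steap4 (7.19), Lrrc55 (5.92), Ptx3 (3.89), Efcc1 (3.77) and Slitrk5 (1.03). The libraries of Ptx3 and Efcc1 overlapped in that order, and those of the other neighbours did not. With TEV the order was Kcne3 (5.20 CPM per kb), Mycn (0.935), Steap4 (0.274), Efcc1 (0.180), Ptx3 (0.127), Lrrc55 (0.0623) and Slitrk5 (0.0430), and the libraries overlapped between Steap4 and Efcc1 and between Efcc1 and Ptx3 but between no other neighbours. With vehicle it was Kcne3 (52.4 CPM per kb), Ptx3 (13), Steap4 (5.44), Lrrc55 (3.48), Efcc1 (3.44), Mycn (2.93) and Slitrk5 (2.62), and there Ptx3 and Steap4, Steap4 and Lrrc55, Lrrc55 and Efcc1, Efcc1 and Mycn, and Mycn and Slitrk5 overlapped. Kcne3 was thus the highest in every group.

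The genes were not the only ones at the top of the contrast that chose them. Ranked among the 4013 called genes that averaged 5 CPM or more, they ranked 1st, 3rd, 4th, 5th, 8th, 9th and 10th by log2 change, and Col15a1 (5.95), Btnl9 (4.51) and Aplnr (4.39) stood between them. The lowest of them inside were Efcc1 (4.29), Kcne3 (3.91) and Mycn (3.66), and the next genes outside were Gbp9 (3.56), Cyp4b1 (3.54) and Sema7a (3.39).

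**Figure D3:**
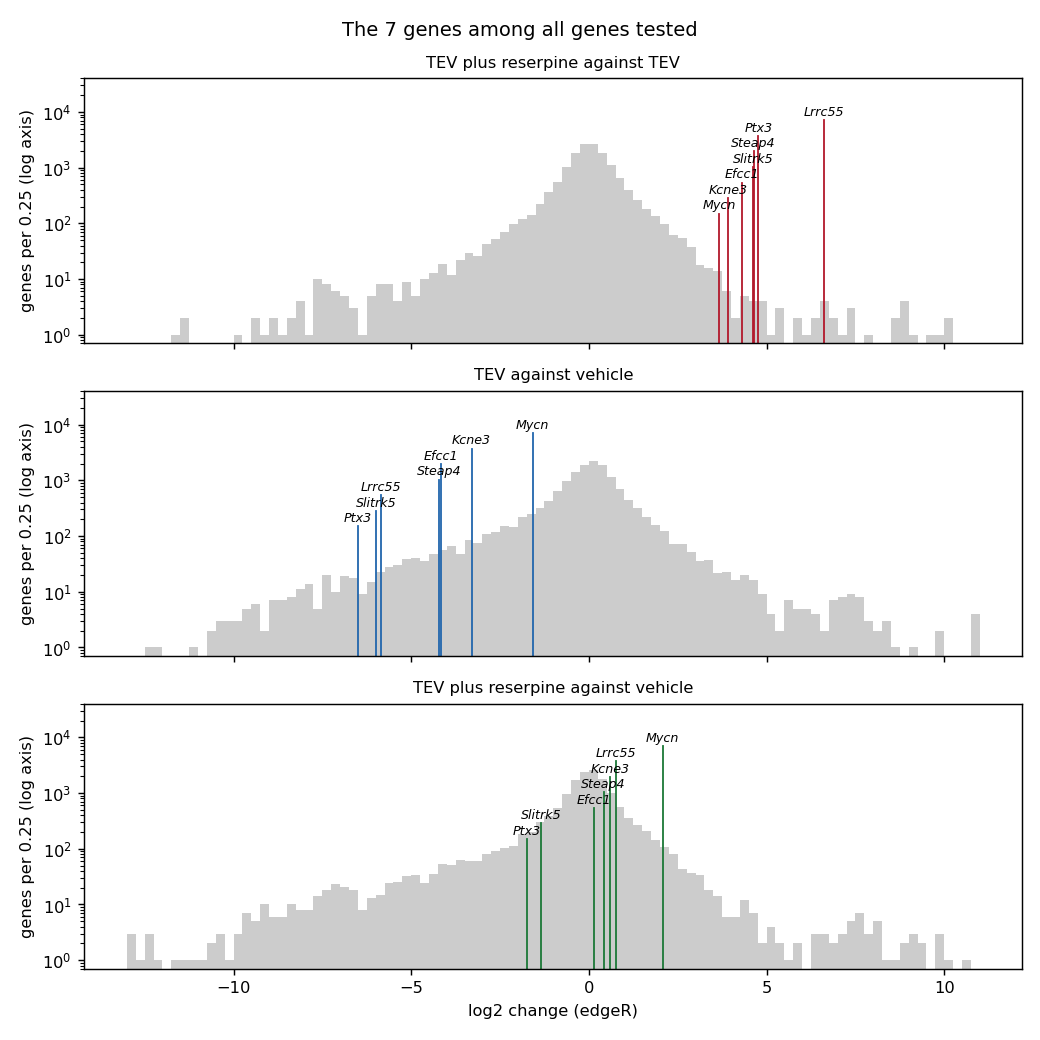
Grey bars count all 15035 genes tested by log2 change in bins of 0.25 on a log axis, with changes beyond the axis in the end bars, and coloured lines mark the 7 genes. In TEV plus reserpine against TEV they lie between 3.66 and 6.61; in TEV against vehicle they lie between -6.50 and -1.58, and in TEV plus reserpine against vehicle between -1.74 and 2.08.

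Over the 6 libraries, Pearson's r of log2 CPM between pairs of the 7 genes ranged from 0.633 to 0.990 (21 pairs, median 0.923), a description that follows largely from the choice. Of 10424 other genes that averaged 5 CPM or more, 813 (7.80%) had an r over 0.9 with the mean standardised profile of the 7. The 10 closest, with r of 0.995 to 0.997, were Rnd3, Pcdh12, Bcap29, Nid2, Col15a1, Cox16, Pnrc2, Mrps35, Lcp2 and Lmo2. Their sizes of change differed: Col15a1, a basement membrane collagen, averaged 240.1 CPM with TEV plus reserpine, 3.76 CPM with TEV and 197.8 CPM with vehicle, whereas Pnrc2 averaged 79.3, 53.3 and 78.2 CPM in the same order of groups. The single closest genes were Egr1 for Lrrc55, Rnf125 for Ptx3, Snrnp27 for Steap4, Tle1 for Slitrk5, Mtss1 for Efcc1, Nid2 for Kcne3 and Fam212a for Mycn, with r between 0.994 and 1.00. Each is the highest of 10424 values over only 6 libraries, so a high r follows from the search, and shared control was not tested.

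Genes related to the 7 by family or pathway are given by their counts called by edgeR and their median log2 change; the shares and medians of all genes stand above or beside them. Myc, the most studied MYC gene, had 196 and 187 CPM with TEV plus reserpine, 64.7 and 103 CPM with TEV, and 138 and 145 CPM with vehicle, and Mycl had 9.02 and 7.69, 1.47 and 2.75, and 8.17 and 11.2 CPM. Both rose in TEV plus reserpine against TEV (log2 change 1.19 and 1.95, edgeR adjusted p = 0.00688 and 0.00675) and fell in TEV against vehicle (-0.76 and -2.17, adjusted p = 0.0177 and 0.00182). Neither was called in TEV plus reserpine against vehicle (0.43 and -0.22, edgeR adjusted p = 0.126 and 0.610), where Mycn was. Of the 17 genes of the MYC network other than Mycn, 3 were higher and 4 lower in TEV plus reserpine against TEV (median log2 change -0.10, against 0.00 for all genes). Those lower were Zbtb17, which encodes the MYC partner MIZ1 (-0.94), Mlx (-0.56), Mlxip (-0.48) and Max (-0.33). The third that rose was Aurka, a kinase that stabilises N-MYC (0.64). Max rose by 0.43 in TEV against vehicle (edgeR adjusted p = 0.00784), so its signs were opposite to those of Mycn in both comparisons.

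Of 26 genes known as MYC targets, 9 were higher and 0 lower in TEV plus reserpine against TEV (median 0.17). Ccnd2, a G1 cyclin, rose by 1.30, the pyrimidine synthesis gene Cad by 0.72, and the spermidine synthase gene Srm and the nucleolar gene Npm1 by 0.48 each. In TEV plus reserpine against vehicle 15 were higher and 1 lower (median 0.40, against -0.02 for all genes, of which 19.1% were higher), and in TEV against vehicle 8 were higher and 2 lower (median 0.10, against 0.01).

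Of the other STEAP genes, Steap1 fell by 0.33 in TEV plus reserpine against TEV (edgeR adjusted p = 0.0236) and rose by 0.72 in TEV against vehicle (adjusted p = 0.000595), the opposite signs to Steap4. Steap2 and Steap3 were not called in TEV plus reserpine against TEV (-0.08 and 0.23, edgeR adjusted p = 0.558 and 0.441). Steap3 fell by 1.00 in TEV against vehicle (edgeR adjusted p = 0.00741), the direction of Steap4, and Steap2 was not called there (0.16, 0.205). The list of STEAP, iron and copper genes had 17 genes other than Steap4 tested out of 20, with Steap1, Steap2 and Steap3 among them. Of these, 2 were higher and 3, Steap1 included, lower in TEV plus reserpine against TEV (median 0.13). In that comparison the haem oxygenase gene Hmox1 rose by 1.09 and the ferritin gene Fth1 by 0.37. The copper ferroxidase gene Heph fell by 1.13 and the metal importer Slc39a8 by 0.44.

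Among pentraxins, Nptx1, known from neurons, was the closest to Ptx3, with 49.4 and 52.7 CPM with TEV plus reserpine, 4.78 and 8.28 CPM with TEV, and 41.9 and 32.2 CPM with vehicle. It rose by 2.94 in TEV plus reserpine against TEV (edgeR adjusted p = 0.000896) and fell by 2.48 in TEV against vehicle (0.000399). Nptx2 stayed low: it had 0.134 and 0 CPM with TEV plus reserpine, 0.0833 and 0 CPM with TEV, and 2.39 and 1.92 CPM with vehicle. Nptxr was not called in any of the 3 comparisons (log2 changes -0.09, 0.31 and 0.21). The short pentraxin genes Crp and Apcs and Ptx4 were below the filter on low counts. Of the 15 other genes of the pentraxin list tested out of 20, 2 were higher and 1 lower in TEV plus reserpine against TEV (median 0.17, or 0.13 without Nptx2, which was at or under 3 counts in both groups). In TEV against vehicle 1 was higher and 8 lower (median -1.22).

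Of 26 other genes of the response to tumour necrosis factor and NF-kB, 5 were higher and 2 lower in TEV plus reserpine against TEV (median 0.43). Cx3cl1, a membrane-bound chemokine, had 107 and 98.8 CPM with TEV plus reserpine, 13.5 and 18.6 CPM with TEV, and 17.9 and 27.9 CPM with vehicle, and rose by 2.67 (edgeR adjusted p = 0.000896). Irf1 rose by 1.95 and the adhesion molecule gene Vcam1 by 1.2, and the chemokine gene Ccl7 fell by 1.88. In TEV against vehicle 5 were higher and 6 lower (median -0.06), and in TEV plus reserpine against vehicle 5 and 2 (median 0.24). Both rest on vehicle libraries that lay far apart for several of these genes. Vehicle replicates 1 and 2 had 0.859 and 52.2 CPM of Cxcl1, 0.999 and 19.5 of Csf3, and 77.6 and 411 of Ccl2. For others, such as Tnfaip8 (9.08 and 9.12 CPM), they were close.

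The other tested KCNE gene, Kcne4, fell with TEV as Kcne3 did but, unlike Kcne3, stayed low with TEV plus reserpine. It had 0.0447 and 0.0861 CPM with TEV plus reserpine, 0.0833 and 0.0255 CPM with TEV, and 7.48 and 8.64 CPM with vehicle. Kcne1, Kcne2 and Kcne1l were below the filter. Kcnq1, a channel that KCNE3 can hold open, had 13.8 and 9.39 CPM with TEV plus reserpine, 2.92 and 3.26 CPM with TEV, and 9.99 and 15.5 CPM with vehicle, rose by 1.9 in TEV plus reserpine against TEV (edgeR adjusted p = 0.00461) and fell by 2.03 in TEV against vehicle (0.00131). Kcnd3 rose by 2.74 and Kcnh2 fell by 0.64 in TEV plus reserpine against TEV, where 2 of the 10 other genes tested out of 16 were higher and 2 lower (median 0.73). Kcnma1, the pore subunit of the BK channel with which LRRC55 is known to pair, was below the filter on low counts, with at most 14.1 estimated counts in a library, as were Lrrc26, Lrrc38 and Lrrc52, the other BK gamma subunit genes. On the list of BK subunits and other endothelial potassium channels, 7 other genes were tested out of 15. In TEV plus reserpine against TEV 3 were higher and 1 lower (median 0.39). In TEV against vehicle 0 were higher and 4 lower by edgeR (median -2.05). Those 3 and those 4 were channels other than BK. The 1 lower was the BK subunit gene Kcnmb4 (-2.235), which averaged only 0.82 CPM. Kcnmb1, another BK subunit gene, was called in neither comparison.

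The other SLITRK genes tested stayed low in TEV plus reserpine cells. Slitrk2 had 0.134 and 0.201 CPM with TEV plus reserpine, 0.111 and 0.127 CPM with TEV, and 4.83 and 3.17 CPM with vehicle. Slitrk6 had 0 and 0.0287 CPM with TEV plus reserpine, no count with TEV, and 4.51 and 5.05 CPM with vehicle, so it was at least 181-fold lower with TEV than with vehicle taking 3 counts over the TEV group as the floor. Slitrk1, Slitrk3 and Slitrk4 were below the filter. Of the 15 other genes of this list tested out of 24, 5 were higher and 1 lower in TEV plus reserpine against TEV (median 0.66, or 0.58 without Slitrk6, which was at or under 3 counts in both groups). The adhesion gene Flrt3 rose by 2.69, and the guidance genes Slit2 and Slit3 by 1.23 and 0.66, while Flrt2 fell by 2.09. In TEV against vehicle 2 were higher and 11 lower (median -2.59).

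**Figure D4:**
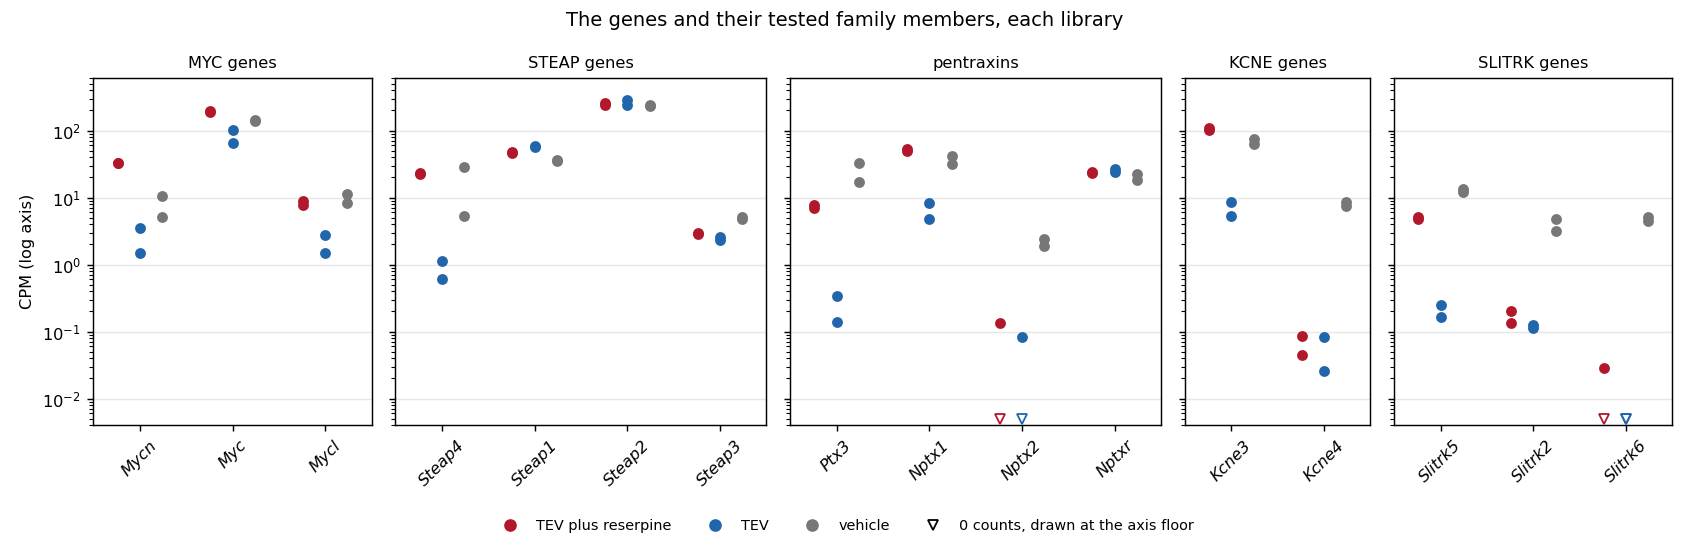
Points give CPM in each library on a log axis for Mycn, Steap4, Ptx3, Kcne3 and Slitrk5 beside the tested genes of their families, with open triangles for 0 counts. Myc, Mycl and Nptx1 show a low TEV group between higher ones, whereas Kcne4, Nptx2, Slitrk2 and Slitrk6 are low in both vesicle groups and Steap1 is highest with TEV.

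Of 23 tip cell genes other than Kcne3, 14 were higher and 3 lower in TEV plus reserpine against TEV (median 0.83). Igfbp3, an insulin-like growth factor binding protein gene, rose by 3.12, the VEGF receptor gene Kdr and the Notch ligand gene Dll4 by 2.48 each, and the basement membrane gene Nid2 by 1.96. In TEV against vehicle 6 were higher and 10 lower (median -0.14), and in TEV plus reserpine against vehicle 13 were higher and 4 lower (median 0.51).

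Markers of other cell types differed between the groups. The 14 fibroblast markers summed to 519 and 564 CPM with TEV plus reserpine, 343 and 410 CPM with TEV, and 3298 and 3747 CPM with vehicle, and the 12 markers of pericytes and smooth muscle to 887 and 961, 742 and 872, and 2134 and 2151 CPM. Among defining markers, Col1a2 averaged 2.63 CPM with TEV plus reserpine, 1.73 CPM with TEV and 1358 CPM with vehicle, Pdgfrb averaged 2.36, 2.53 and 113 CPM, and Cspg4 had no count in either vesicle group; Lum, Dpt and Tcf21 had none with TEV plus reserpine. In TEV against vehicle 1 of the 13 fibroblast markers tested was called higher and 12 lower, and 12 of the 12 pericyte markers lower. Of the 15 endothelial markers, 8 were called higher and 6 lower there (median log2 change 0.29), so their higher sum was not shared by all. In TEV plus reserpine against TEV 7 endothelial markers were called higher and 3 lower. In TEV plus reserpine against TEV 6 fibroblast markers were called higher and 1 lower (median log2 change 0.52), and 5 of 12 pericyte markers higher (median 0.70). Several markers were lowest with TEV, as the 7 genes were: Notch3 averaged 21.1 CPM with TEV plus reserpine, 4.64 CPM with TEV and 23.5 CPM with vehicle, Abcc9 averaged 11.1, 1.52 and 24.1 CPM, Kcnj8 averaged 3.05, 0.442 and 1.81 CPM, and Dcn averaged 25.9, 14.2 and 31.1 CPM. In bulk RNA, fewer cells of a type and less RNA per cell cannot be told apart.

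The 12 markers of neurons and glia summed to 172 and 182 CPM with TEV plus reserpine, 27.1 and 41.2 CPM with TEV, and 123 and 137 CPM with vehicle, lowest with TEV, as each of the 7 genes was. In TEV plus reserpine cells most of that sum was Gap43 (158 CPM), while Snap25 had no count. Of the 10 tested, 3 were called higher and 0 lower in TEV plus reserpine against TEV. Against vehicle, 1 was called higher and 6 lower with TEV plus reserpine (median log2 change -1.96). The 13 markers of macrophages and leukocytes in the table summed to 37.2 and 38.8, 28.5 and 29.9, and 68.9 and 78.3 CPM. The 12 epithelial markers summed to 56.2 and 63.1, 63.2 and 66.6, and 20.9 and 21.0 CPM, with Epcam, Sftpc, Sftpb and Scgb1a1 at 0 with TEV plus reserpine, and the 6 mesothelial markers to 17.2 and 17.9, 27.7 and 30.6, and 45.1 and 48.6 CPM. Against vehicle, 5 of the mesothelial markers were called lower and 1 higher with TEV (median log2 change -4.06). With TEV plus reserpine 5 were called lower and 0 higher (median -4.56), so the sum understates the fall of most of them. The 8 lymphatic markers summed to 1735 and 1767, 1426 and 1513, and 1865 and 1874 CPM. The part of any of these lists in the changes of the 7 genes was not tested.

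**Figure D5:**
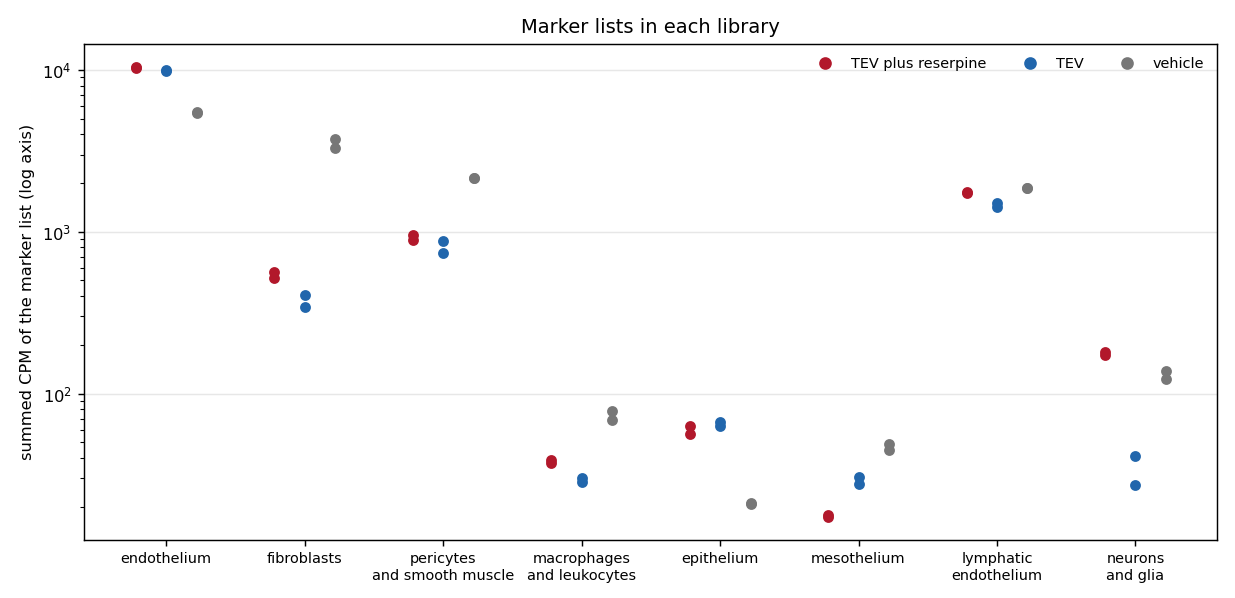
Points give the summed CPM of each marker list in each library on a log axis, in the order TEV plus reserpine, TEV and vehicle. The fibroblast and pericyte sums are lower in both vesicle groups than with vehicle, and the endothelial sum is higher there. The neuron and glia sum is lowest with TEV.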

How the data were processed

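Per the labels' protocols, RNA was extracted with Trizol, and TruSeq mRNA libraries were read as 75 bp single ends. Per the submitters' processing notes, kallisto 0.45.0 and R 4.0.0 with edgeR and limma were used. GRCh38, a human build, is the one named there, but the tables hold mouse gene symbols and no coordinates. The authors deposited a raw and a filtered table, both holding estimated counts per gene symbol; the 13098 genes of the filtered table have the raw values, with 0 differences, so the raw table was used.

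Estimated counts were rounded, filtered with filterByExpr (15035 genes kept) and scaled by TMM, with factors of 0.941 to 1.04. CPM in the text used these scaled library sizes, except sums of marker lists and the CPM of 3 counts, which used library totals. All comparisons were contrasts in 1 quasi-likelihood model of the 6 libraries with 3 residual degrees of freedom (R 4.3.3, edgeR 4.0.16, limma 3.58.1, DESeq2 1.42.0), adjusted by Benjamini-Hochberg over all genes tested. The SE is the log2 change divided by the root of the F statistic. The fit was tested on simulated data. The members, lists, motifs and tests were chosen with earlier results of these data known. Named were the 7 genes, their paralogs, up to 4 further called genes per list with a mean of at least 5 CPM and the largest log2 change, and the genes of highest r. Markers, overlapping genes, Kcnma1, Kcnmb1, Kcnmb4, Max, Fgf2 and the complement and lectin genes were named after their values were seen. Promoter windows came from RefSeq (GRCm38.p6), with an entry for each of the 7 symbols. Motifs were searched on both strands.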

Additional observations from a re-analysis of the deposited data

How the results depend on the processing

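The alternatives were scaling by library size alone, DESeq2, limma-voom, other filters, a prior count of 2, fits of only the 2 groups compared, thinning to the smallest library, each library left out, and replicate blocks. No alternative changed the sign of any of the 7 log2 changes in TEV plus reserpine against TEV or in TEV against vehicle, but Steap4 lost its call in the first without TEV replicate 1 (4.33, adjusted p = 0.0538), which left 6 of 7. Leaving out a library gave 2124 to 4315 calls over all genes in TEV plus reserpine against TEV (4757 with all), 5381 to 7430 in TEV against vehicle (7476) and 3572 to 5950 in TEV plus reserpine against vehicle (5873). The lowest were without TEV replicate 1 (2124) and vehicle replicate 1 (3572), and the first comparison had 2581 and 2560 with TEV plus reserpine replicate 1 and replicate 2 left out. Of the 7 genes, 6 to 7 were then called lower in TEV against vehicle, and 2 to 3 higher and 1 to 2 lower in TEV plus reserpine against vehicle.

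With a replicate block by the number in the titles, the calls came to 3840, 6864 and 5094 in that order of comparisons. Deviations of libraries with the same title number correlated at -0.04, 0.02 and 0.02 over 15035 genes. These values show no sign of pairing, but with 2 libraries per group they cannot exclude a shared culture or batch. With a replicate block by the number in the descriptions, the calls came to 3538, 4568 and 2702, and in TEV plus reserpine against vehicle 1 of the 7 genes was called higher and 1 lower. In the descriptions no other library shares the number of vehicle replicate 1, so that library stood alone in its block. Comparisons against vehicle in that fit therefore rested on vehicle replicate 2. The log2 changes in TEV plus reserpine against vehicle were then -0.48 for Steap4 and 1.40 for Mycn. Lrrc55 (0.75), Slitrk5 (-1.15) and Kcne3 (0.31) were not called. Leaving vehicle replicate 1 out altogether, which removes the same library, gave Steap4 -0.35, and leaving out vehicle replicate 2 gave 2.08.

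With library size alone as the scaling, the all-gene median in TEV against vehicle was -0.11, and the share of its calls that were higher was 39.8%, against 50.5% with TMM. The 7 genes lay far outside that shift there. Depth limits Ptx3, Lrrc55 and Slitrk5 most, with 4.93 to 26.7 estimated counts in the TEV libraries. Thinned to the smallest library, the log2 changes in TEV plus reserpine against TEV and in TEV against vehicle were 5.56 and -7.39 for Ptx3, 3.87 and -5.22 for Slitrk5, and 6.72 and -5.92 for Lrrc55.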
